A study of Homo sapiens with 18 samples.

Results

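The 10 genes described here encode the core microRNA (miRNA) machinery: DROSHA and DGCR8, XPO5, DICER1 with its partners TARBP2 and PRKRA, and the Argonautes AGO1, AGO2, AGO3 and AGO4. They were listed by name, with no threshold on their values, out of 58302 genes, at a time when earlier results of these data were known, and DICER1 among them is the gene that the study targeted. The study asked what happens to thyroid cancer cells when Dicer1 is partly or almost fully lost. TPC1 is a line from a human papillary thyroid carcinoma whose genotype is wild type at Dicer1, and D11 is a Dicer1 (+/-) line made from TPC1 with CRISPR-Cas9. D11 grew from 1 sorted cell and its disrupted allele is reported to carry a frameshift, so it stands for 1 clone. Each line was left non-transfected (NT), or was transfected with 5 nM of a negative control siRNA (NC) or of Dicer1 siRNA (siDicer), and day 4 after transfection was sampled. Poly-A selected RNA of 18 libraries was sequenced, 3 in each of the 6 groups, and a line's 6 control libraries were its NT and NC libraries together.

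Most animal miRNAs are made in steps. In the nucleus the Microprocessor, an RNase III enzyme (DROSHA) bound to an RNA-binding partner (DGCR8), cuts a hairpin out of a long primary transcript, and Exportin-5 (XPO5) carries the hairpin to the cytoplasm. There Dicer, with TRBP (TARBP2) or PACT (PRKRA), cuts off the loop, and an Argonaute protein keeps a strand as its guide and silences the messenger RNAs (mRNAs) that pair with it. An siRNA enters this pathway at the Argonaute step, without being cut by Dicer. In the thyroid, inherited and somatic DICER1 mutations are known from goitre and from tumours of follicular cells.

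All values are normalised counts: a library's reads per gene scaled to 20 M aligned reads. The libraries held 11.3 to 23.2 M reads, so 1 read was worth 0.861 to 1.77 of these units and every value of the 10 genes rests on over 100 reads. Calls needed an adjusted p below 0.05 from limma, together with a fold change of 1.5 or more, and log2 changes refer to the normalised count plus 1. Nothing in the labels says that replicates came from separate cultures, so p-values measure the spread between these libraries. Where groups of libraries are said not to overlap, the share of all genes without overlap was not counted. With so few libraries such a separation is weak evidence by itself. For 12 of the 18 samples the title gives another group than the description does. The descriptions were used, and with groups from the titles the DICER1 difference would be only -0.13 in log2 in each line (limma adjusted p of 1). Among thyroid follicular markers, PAX8 was high (7361 to 14886), TG and FOXE1 were low, and TSHR, SLC5A5 and NKX2-1 did not exceed 2. The 4 epithelial markers summed to 8627 to 20152, nearly all from KRT8 and KRT18. Of 6 leukocyte, endothelial and fibroblast markers, PTPRC, CD3E, PECAM1 and CDH5 stayed at or below 12. PDGFRB was called higher in siDicer of both lines (log2 change 1.82 in TPC1 and 1.60 in D11), and the sum of these 6 was 97 to 126 in TPC1 controls and 112 to 283 in TPC1 siDicer. In D11 that sum was 61 to 139 in controls and 160 to 243 in siDicer, and its part in the results was not tested. In bulk RNA, fewer cells with a transcript and less of it per cell cannot be told apart.

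The miRNA pathway is also known to act on its own mRNAs. The sequences below mark letters that could pair with some miRNAs, and they are not measured binding. Members of the let-7 family are known to bind within the coding part of DICER1, and miR-103 and miR-107 are known to bind its 3' untranslated region (3'UTR). Their mature sequences in RefSeq (GRCh38.p14) are shown with the seed, bases 2 to 8, in capitals. miR-103a-3p and miR-107 share their seed and are called the miR-103 family below.
hsa-let-7a-5p: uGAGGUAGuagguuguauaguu
hsa-miR-103a-3p: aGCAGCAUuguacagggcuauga
hsa-miR-107: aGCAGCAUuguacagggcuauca

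A seed match is the heptamer that pairs with these 7 bases, CTACCTC for let-7 and ATGCTGC for the miR-103 family, and it was searched on the transcript strand of each gene's canonical transcript (GENCODE 44). DICER1 (ENSG00000100697), which spans chr14:95086228-95158010 on the minus strand of GRCh38 with 27 exons in this transcript, held 5 miR-103 family matches in its 3'UTR of 4270 bases. The 30 bases around each follow in 5' to 3' order along the transcript, with the heptamer in capitals.
DICER1 3'UTR, chr14:95089450-95089479: tatcacacctaaaatATGCTGCagatttta
DICER1 3'UTR, chr14:95088849-95088878: ttgatgcttcgtggaATGCTGCatttatat
DICER1 3'UTR, chr14:95087645-95087674: tccgcagtcctaactATGCTGCgttttata
DICER1 3'UTR, chr14:95086374-95086403: aatatttaccatcacATGCTGCagctgttt
DICER1 3'UTR, chr14:95086322-95086351: attcatacagtaatcATGCTGCagaaattt

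Among 1654 human 3'UTRs within 20% of that length, 28.3% held at least 1 such match and 0.18%, or 3 of them, held 5 or more. The let-7 heptamer was absent from the DICER1 3'UTR, but its coding sequence of 5766 bases held it 4 times, in exons 16, 21 and 24 of the canonical transcript.
DICER1 exon 16, chr14:95107881-95107910: tcagcatactgtgttCTACCTCttaatgtt
DICER1 exon 21, chr14:95103741-95103770: tacccgtgcaaccaaCTACCTCatattcca
DICER1 exon 21, chr14:95103633-95103662: gaaatgctaacaaatCTACCTCagatggaa
DICER1 exon 24, chr14:95094099-95094128: agatgcgattttggaCTACCTCataaccaa

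Of 588 coding sequences within 20% of that length, 34.7% held the let-7 heptamer at least once and 0.34%, or 2 of them, held it 4 times or more. The shortest 3'UTR of the group, the 283 bases of TARBP2 (chr12:53500921-53506431, plus strand), held 1 match of each kind, and 2.3% of 1463 3'UTRs of like length held each heptamer.
TARBP2 3'UTR, let-7 match, chr12:53506236-53506265: ctgtgggtgccatctCTACCTCtgacacag
TARBP2 3'UTR, miR-103 family match, chr12:53506395-53506424: gagcctggaataaatATGCTGCtttgtgga

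The Argonaute 3'UTRs, 4285 to 16755 bases long, all held the miR-103 family heptamer: 3 matches in AGO1, 5 in AGO2, 1 in AGO3 and 2 in AGO4. These are lengths at which 28.3% to 63.0% of 3'UTRs hold it. The let-7 heptamer occurred once in the 3'UTRs of AGO1 and AGO3 and 2 times in that of AGO2, and in none of AGO4. The AGO4 matches are shown because this gene had the lowest values of its family in siDicer relative to controls.
AGO4 3'UTR, chr1:35854409-35854438: aaaagtgcccattttATGCTGCtgtgtggt
AGO4 3'UTR, chr1:35854753-35854782: aaggtacaatgagtgATGCTGCaacttgca

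In the 3'UTRs of DROSHA, DGCR8, XPO5 and PRKRA neither heptamer was found, which says only that these letters are not there. In coding sequences, XPO5 and AGO3 each held 1 let-7 match. DICER1, TARBP2, PRKRA, AGO1 and AGO4 each held 1 miR-103 family match there. A match is a description of the sequence and not a measured binding site, since miRNAs were not sequenced in these libraries.

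The DGCR8 mRNA is known to be cut by the Microprocessor itself at hairpins near its 5' end, and 2 miRNA genes lie in exon 2 of DGCR8 (chr22:20080221-20111877, plus strand). miR-3618 sits before the start codon and both arms of miR-1306 sit in the coding sequence. The mature sequences in RefSeq are given with bases 2 to 8 in capitals.
hsa-miR-3618, chr22:20085797-20085818: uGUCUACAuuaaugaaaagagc
hsa-miR-1306-5p, chr22:20086072-20086093: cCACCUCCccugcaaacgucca
hsa-miR-1306-3p, chr22:20086112-20086129: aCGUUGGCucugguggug

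RefSeq promoters, 250 bases before to 50 after the start, matched for 9 of the 10 genes (not for AGO2). They held 19 to 57 CpG dinucleotides against a median of 14 over 27305 promoters. None of the 9 held the letters TATAAA on the gene's strand in the 250 bases before the start, which 7.2% of all promoters do.

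Levels can be compared between the genes per kilobase (kb) of exon. In non-transfected TPC1 cells XPO5 was the most abundant, with 281 normalised counts per kb of its merged exons, followed by AGO2 (194), DGCR8 (170), DROSHA (144) and TARBP2 (121). DICER1 came next (67.6), then AGO1 (61.7), AGO4 (56.1) and PRKRA (55.4), and AGO3 was the lowest at 13.7. AGO4 varied so much between its libraries, 35.7 to 80.6 per kb, that DICER1, AGO1 and PRKRA all lay within its range. The order depends on the length used. Per kb of the canonical transcript XPO5 still came first (448) and AGO3 last (14.8), but PRKRA took the second place (377) and TARBP2 the third (328). With Dicer siRNA DICER1 was last of the 10 per kb of merged exons, at 13.5 in TPC1 and 15.4 in D11, each next to AGO3 (16.7 and 16.6). Per kb of the canonical transcript it was 28.8 and 32.9, above AGO3 alone.

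**Figure D1:**
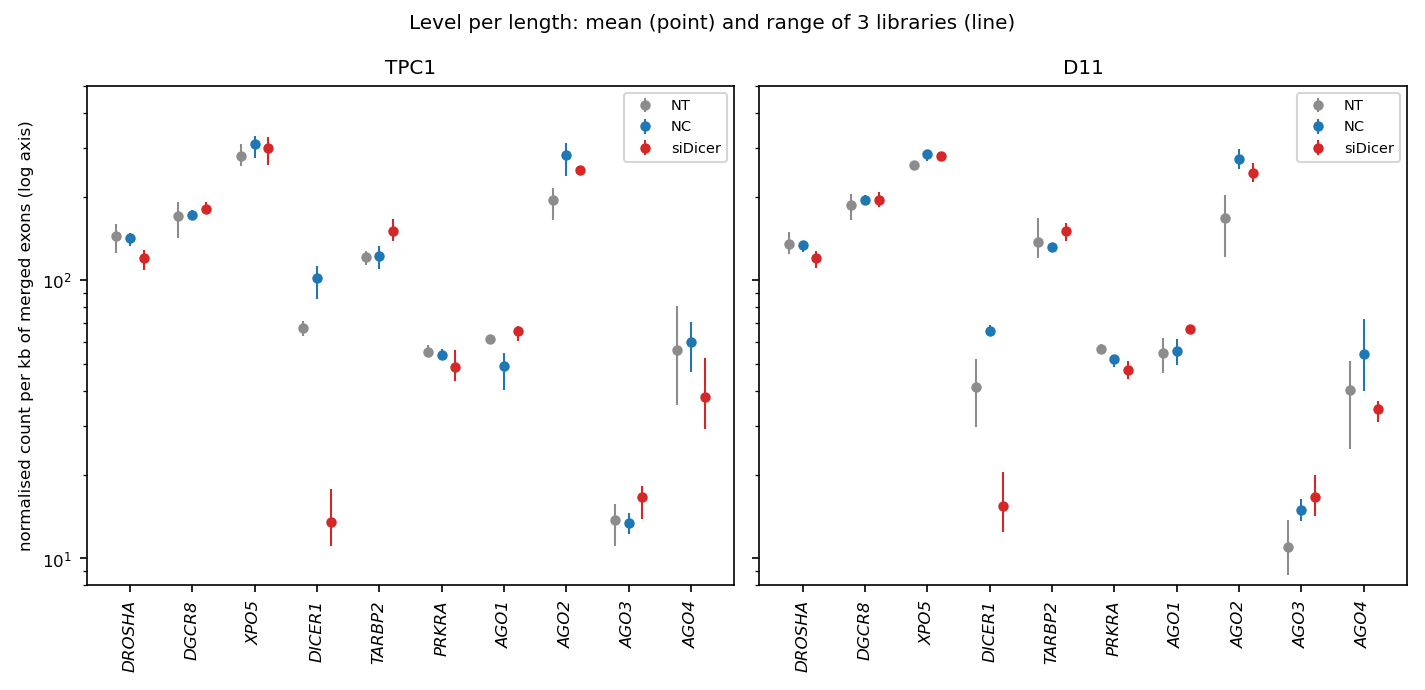
Normalised count per kb of merged exons on a log axis for the 10 genes in TPC1 (left) and D11 (right), with the mean of 3 libraries as a point and their range as a line. DICER1 drops to the level of AGO3 in siDicer, from 67.6 in TPC1 NT to 13.5, while XPO5 stays near the top in every group.

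The main comparison asked what the loss of Dicer1 by siRNA does to the rest of its own pathway. DICER1 fell in both lines and no other of the 10 genes was called. Over all genes tested, 7.38% were called in TPC1 and 12% in D11, so 1 of 10 called is near the background in each line, and that gene is the siRNA's target. With the replicate number as a block in D11, DICER1 was again the only call among the 10, beside 13.3% of all genes. The median log2 change of the 10 genes was 0.06 in TPC1 and 0.04 in D11, beside -0.04 over all genes in both lines. After DICER1 the largest estimate in both lines was that of AGO4, on the lower side.

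**Figure D2:**
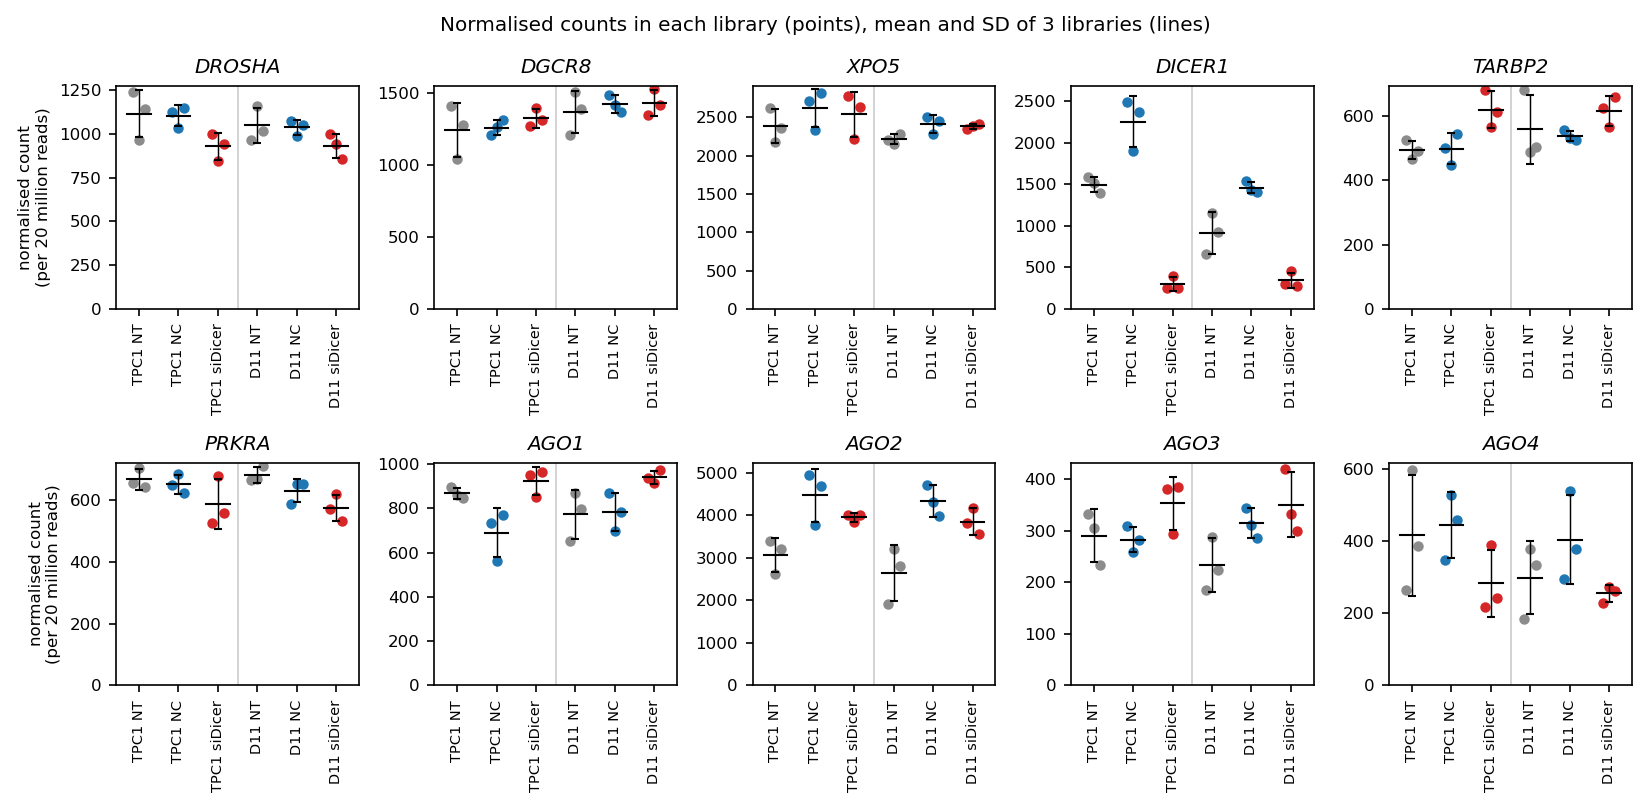
Normalised counts of the 10 genes in each of the 18 libraries (points, in replicate order within a group), with the group mean and SD of 3 libraries (lines), and every axis starting at 0. DICER1 in siDicer (246 to 451) lies below every control library of either line, and AGO2 and DICER1 lie higher in NC than in NT of the same line.

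The Microprocessor genes were not called in either line. DROSHA (chr5:31400494-31532196), the nuclear RNase III, had TPC1 counts of 1239, 969 and 1146 without transfection, of 1127, 1036 and 1151 with NC and of 1001, 847 and 944 with siDicer. Its siDicer libraries overlapped the controls only through NT replicate 2, and the log2 change was -0.25 (SE 0.10, limma adjusted p = 0.102). With the replicate number as a block the limma adjusted p was 0.0337, with the same estimate and no call. In D11 the change was -0.16 (SE 0.09, limma adjusted p = 0.242). DGCR8, its RNA-binding partner, had counts of 1039 to 1408 in TPC1 controls and 1270, 1397 and 1310 in siDicer, which lay inside the control range. The 95% interval of its log2 change was -0.13 to 0.30 in TPC1 and -0.17 to 0.24 in D11, so a change of 1.5-fold either way lies outside both intervals. DGCR8 and DROSHA form the Microprocessor together, and their counts did not run together over the 18 libraries (Pearson r of 0.02 on the log2 scale), as a description across libraries that share groups.

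XPO5, the export factor on chr6:43522334-43576038, was not called in either line. Its counts were 2178 to 2809 in TPC1 controls and 2775, 2212 and 2630 in siDicer, and 2154 to 2506 in D11 controls and 2348, 2382 and 2412 in siDicer. Neither line showed siDicer libraries outside the control range. The log2 change was 0.02 in TPC1 (95% interval -0.21 to 0.25) and 0.04 in D11 (-0.13 to 0.22). POLR1C overlaps 348 exonic bases of XPO5 on the opposite strand, and whether the read counting used strand is not given in the sources used here.

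DICER1 itself ranged over 1397 to 2492 in the TPC1 controls against 255, 395 and 246 with Dicer siRNA. The D11 controls ranged over 655 to 1536 against 297, 451 and 277 with Dicer siRNA. No siDicer library reached a control library of either line. The log2 change was -2.64 in TPC1 (SE 0.21, limma adjusted p = 0.000337), the third smallest p of 18475 genes. In D11 it was -1.77 (SE 0.25, limma adjusted p = 0.000649), the 250th smallest of 18413. The antisense gene DICER1-AS1 shares 80 exonic bases with it.

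The Dicer partners had estimates on opposite sides of 0, and neither was called. TARBP2, which encodes TRBP, had counts of 448 to 545 in TPC1 controls and 680, 566 and 612 in siDicer. Every siDicer library was above every control, yet the estimate, 0.32 in log2 (SE 0.10, limma adjusted p = 0.0535), missed the threshold. Its 95% interval of 0.10 to 0.53 lies below a 1.5-fold change. The limma adjusted p was 0.0241 with the replicate block and 0.0498 in the fit of all 18 libraries, with the same estimate and no call. In D11 the change was 0.18 (SE 0.12, limma adjusted p = 0.314) with counts of 489 to 682 in controls and 624, 567 and 659 in siDicer, which overlapped. PRKRA, which encodes PACT (chr2:178431292-178451512), had counts of 623 to 705 in TPC1 controls and 526, 679 and 559 in siDicer. In D11 the counts were 589 to 712 in controls and 572, 619 and 533 in siDicer. Its estimates were -0.17 (limma adjusted p = 0.258) and -0.19 (limma adjusted p = 0.179) with overlapping groups in both lines. CHROMR covers 1068 exonic bases of PRKRA on the other strand, and 541 exonic bases of TARBP2 overlap a long noncoding RNA, so these values are uncertain by the amount of antisense reads.

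**Figure D3:**
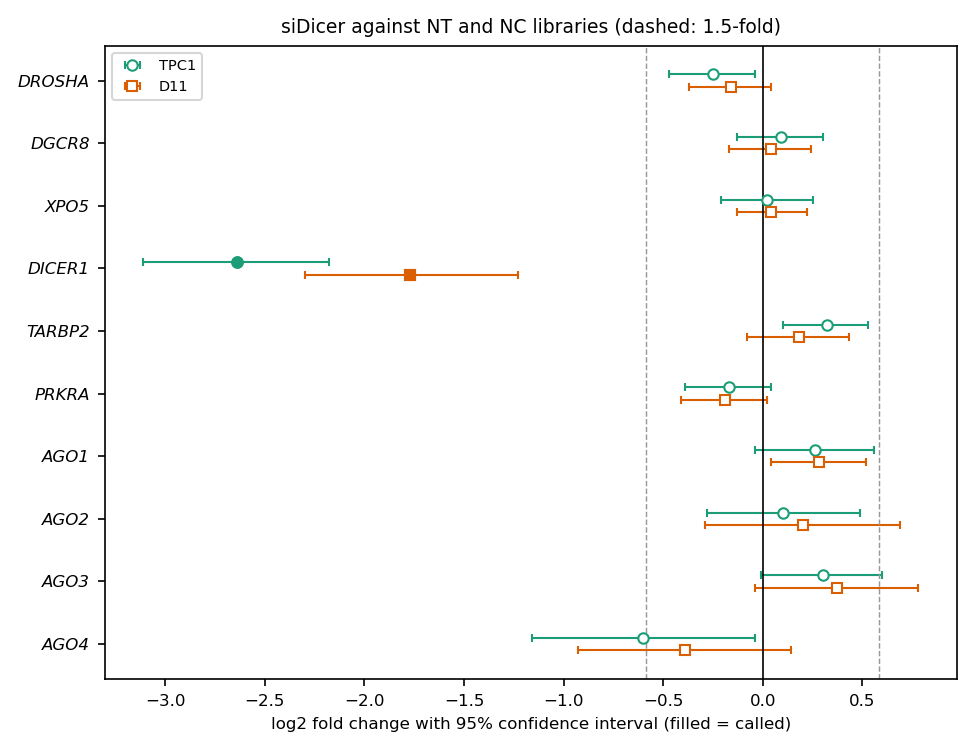
Log2 change of the 10 genes between siDicer and the control libraries of the same line (TPC1 circles, D11 squares), with 95% confidence intervals from the limma fit, filled symbols for called genes and dashed lines at 1.5-fold. Only DICER1 is filled, at -2.64 and -1.77, and the estimates of the other 9 genes lie between -0.60 and 0.37.

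The 4 Argonautes had estimates on both sides of 0, none called. AGO2, the only human Argonaute known for efficient slicing of its targets, had counts of 2613 to 4950 in TPC1 controls and 4013, 3840 and 3999 in siDicer. The siDicer libraries sat inside the control range, because that range is wide: the NT libraries lay below them and most NC libraries above. The AGO2 estimate was 0.10 in log2 in TPC1 (95% interval -0.28 to 0.49) and 0.20 in D11 (-0.29 to 0.69), with limma adjusted p of 0.745 for TPC1. The sign turned in both lines when NC alone was the control, at -0.17 each.

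AGO4, AGO1 and AGO3 lie side by side in this order on the plus strand of chromosome 1, within chr1:35808016-36072500, and encode close paralogs, so reads from stretches they share could be assigned differently by the counting. AGO1 had counts of 564 to 894 in TPC1 controls and 952, 851 and 966 in siDicer. In D11 the counts were 651 to 869 in controls and 936, 912 and 972 in siDicer, and there no control library reached a siDicer library. Its log2 change was 0.26 in TPC1 (SE 0.14, limma adjusted p = 0.232) and 0.28 in D11 (SE 0.11, limma adjusted p = 0.0881). AGO3, the least abundant, gave 0.30 in TPC1 (SE 0.14, limma adjusted p = 0.171) and 0.37 in D11 (SE 0.19, limma adjusted p = 0.178), from counts of 234 to 333 in TPC1 controls and 382, 294 and 385 in siDicer.

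AGO4 was the only Argonaute with estimates below 0. The TPC1 libraries held 265, 598 and 386 (NT), 348, 528 and 460 (NC) and 217, 390 and 242 (siDicer). The D11 libraries held 184, 379 and 334 (NT), 296, 539 and 378 (NC) and 230, 274 and 262 (siDicer). Replicate 2 was the highest library in each of the 6 groups, and siDicer and control libraries overlapped in both lines. The log2 change was -0.60 in TPC1 (SE 0.26, limma adjusted p = 0.139) and -0.39 in D11 (SE 0.25, limma adjusted p = 0.281). Without TPC1 siDicer replicate 2 AGO4 would be called in TPC1 (-0.86, limma adjusted p = 0.0478). With all libraries it was called in TPC1 under the replicate block (-0.60, limma adjusted p = 0.00934), beside 9.72% of all genes. In TPC1 the AGO4 call thus turned on the block or on 1 library. The numbers of TPC1 fell just short of the rule used here for pairing. With NC alone and a block AGO4 was called in both lines, at -0.68 in TPC1 (limma adjusted p = 0.00254) and -0.62 in D11 (limma adjusted p = 0.000605). There 11% of all genes in TPC1 and 12.1% in D11 were called. In D11 that call needed both the block and NC alone. With the block and the joint control the D11 value was -0.39 (limma adjusted p = 0.139), and with NC alone and no block -0.62 (limma adjusted p = 0.0591).

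Set beside the seed matches, the genes other than DICER1 with a miR-103 family heptamer in the 3'UTR (TARBP2 and the 4 Argonautes) had log2 changes of 0.32, 0.26, 0.10, 0.30 and -0.60 in TPC1. DROSHA, DGCR8, XPO5 and PRKRA, which have neither heptamer there, had -0.25, 0.09, 0.02 and -0.17. Matches in coding sequences are left out of this grouping. In D11 the first group had 0.18, 0.28, 0.20, 0.37 and -0.39 and the other -0.16, 0.04, 0.04 and -0.19. None of these changes was called, and the AGO2 values turn to -0.17 in both lines when NC alone is the control.

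The effect of transfection with the control siRNA was examined next, with NC against NT in each line. Without a block, none of the 10 genes was called in TPC1 or in D11, where 0.111% and 0.35% of all genes were. At an unadjusted p under 0.05 limma gave 2003 and 2447 genes in all. With the replicate number as a block DICER1 and AGO2 were called in D11, as described below. DICER1 and AGO2 had the highest estimates of the 10 in both lines. The DICER1 estimate was 0.58 in TPC1 (SE 0.12, limma adjusted p = 0.133) and 0.71 in D11 (SE 0.18, limma adjusted p = 0.153). AGO2 had 3392, 2613 and 3204 without transfection and 4950, 3777 and 4687 with NC in TPC1. The D11 counts of AGO2 were 1921, 3218 and 2811 without transfection and 4718, 4312 and 3986 with NC. For both genes every NC library lay above every NT library of its line. The groups also did not overlap for AGO1 in TPC1 and for PRKRA in D11, both lower in NC. How many of all genes separate in this way was not counted, so these separations are descriptions only. The AGO2 estimates were 0.54 (SE 0.14, limma adjusted p = 0.209) and 0.74 (SE 0.18, limma adjusted p = 0.126).

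In D11 the replicate numbers were taken to pair the libraries, since the deviations of same-numbered libraries correlated above 0.1 in all 9 pairs, against 8 of 9 in TPC1. The lines differed little in this (lowest 0.108 in D11 and 0.099 in TPC1), and over genes with a mean of at least 100 the counts were reversed, 8 of 9 in D11 and 9 of 9 in TPC1. With the replicate number as a block both genes were called higher in D11 NC, DICER1 at a limma adjusted p of 0.046 and AGO2 at 0.036, and 1.75% of all genes were called. In TPC1 the block gave adjusted p of 0.00721 for DICER1 and 0.00306 for AGO2 by limma with estimates just under a 1.5-fold change. The other 8 genes were not called with the block in D11. Replicate 1 matters here: without the NT or the NC library of that number both D11 changes were 0.46, under the fold minimum, though the adjusted p stayed under 0.05.

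**Figure D4:**
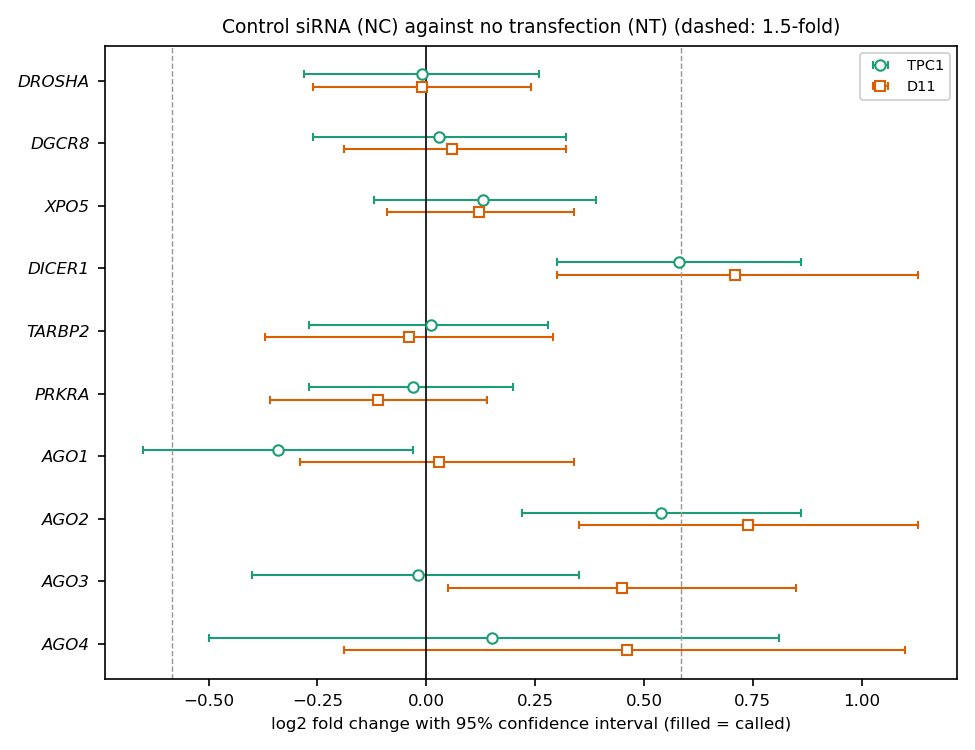
Log2 change of the 10 genes between NC and NT libraries in TPC1 (circles) and D11 (squares), with 95% confidence intervals from the limma fit without a block, and dashed lines at 1.5-fold. DICER1 (0.58 and 0.71) and AGO2 (0.54 and 0.74) are the highest estimates in both lines. No symbol is filled because no gene was called in these fits, while both genes were called in D11 with a replicate block.

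The remaining Argonautes had unlike estimates between NC and NT. AGO1 had counts of 894, 861 and 846 in TPC1 NT and 735, 564 and 770 in NC, with no overlap, and the estimate was -0.34 in log2 (SE 0.13, limma adjusted p = 0.401). The D11 estimate was 0.03 (SE 0.14). AGO3 was at -0.02 in TPC1 and 0.45 in D11, and AGO4 at 0.15 and 0.46, all with overlapping groups. For DROSHA, DGCR8, TARBP2 and PRKRA the estimates were between -0.11 and 0.06 in both lines. Among the partners of the Argonautes, TNRC6A, the scaffold protein that recruits deadenylases to them, had estimates on the same side as AGO2, at 0.52 in TPC1 (SE 0.14, limma adjusted p = 0.218) and 0.81 in D11 (SE 0.14, limma adjusted p = 0.0597). With the replicate block TNRC6A was called higher in D11 NC (limma adjusted p = 0.0148), the only gene of the lists around the core that was. It was picked for mention after its value was seen.

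Against non-transfected cells alone the siDicer libraries were compared as well. DICER1 was the only one of the 10 called in TPC1, where 5.97% of genes were called, and AGO2 was at 0.37 (SE 0.12, limma adjusted p = 0.0867). In D11, where 17.1% of genes were called, AGO3 was called higher (0.60, SE 0.19, limma adjusted p = 0.0447) beside DICER1. The AGO3 call was lost in all but 1 of 6 fits that each left out a library (0.44 to 0.77). AGO2 in D11 passed the adjusted p but not the fold minimum (0.57, SE 0.17, limma adjusted p = 0.0353). These comparisons share their NT libraries with those of NC against NT.

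Per kb of merged exons, AGO2 made up most of the Argonaute mRNA. Its share of the summed 4 genes was 65.0%, 51.3% and 62.1% without transfection in TPC1, against 73.3%, 65.9% and 69.4% with NC and 68.8%, 65.6% and 67.8% with siDicer. In TPC1 every transfected library thus had a higher AGO2 share than every NT library. In D11 the share was 61.0% ± 0.68 in NT, 68.6% ± 2.7 in NC and 67.3% ± 1.86 in siDicer (SD, n = 3 each), again with no overlap between NT and either transfected group. The AGO4 share was 17.3% ± 7.21 in TPC1 NT and 10.3% ± 3.42 in siDicer, and 14.4% ± 1.84 in D11 NT and 9.53% ± 0.821 in siDicer (SD, n = 3 each). No test was run on the shares, and per kb of the canonical transcript the AGO2 share was within 2 percentage points of these means.

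The next comparison asked what the heterozygous Dicer1 deletion does without Dicer siRNA, with D11 against TPC1 in the 12 control libraries and transfection as a term. DICER1 was the only one of the 10 genes called, 1 of 10 beside 1.02% of all genes, and it was lower in D11. The log2 change was -0.68 (SE 0.12, limma adjusted p = 0.00561), a ratio of 0.622 to TPC1. All 3 D11 NT libraries lay below all TPC1 NT libraries, and all 3 D11 NC libraries below all TPC1 NC libraries, but the D11 NC libraries overlapped the TPC1 NT libraries. Within NT alone the change was -0.75 (limma adjusted p = 0.406) and within NC alone -0.62 (limma adjusted p = 0.107), so neither call held by itself. Leaving out D11 NT replicate 1, the library with the least DICER1 of the controls, moved the change to -0.58 (limma adjusted p = 0.00281), just under the fold minimum.

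No other enzyme or Argonaute was called in the heterozygous line. The estimates of the other 9 genes lay between -0.31 (AGO4, limma adjusted p = 0.653) and 0.16 (DGCR8, limma adjusted p = 0.533). For DROSHA the 95% interval was -0.25 to 0.08, for XPO5 -0.26 to 0.03 and for PRKRA -0.15 to 0.13, which leave out a 1.5-fold change. For AGO4 it was -0.78 to 0.16, which does not.

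Among the siDicer libraries no difference between the lines passed the test for these genes. DICER1 was 0.19 higher in log2 in D11 than in TPC1 (SE 0.24, limma adjusted p of 1), with a 95% interval of -0.36 to 0.74. None of the 10 genes was called and 0.287% of all genes were. For DICER1 the drop with siDicer was estimated as 0.88 smaller in log2 in D11 than in TPC1 (SE 0.36, 95% interval 0.13 to 1.62), which had an unadjusted p of 0.0233 in limma but an adjusted p of 1. For the other 9 genes the difference lay between -0.14 and 0.21, and 0% of all genes were called in this interaction, with 133 of 19181 at an unadjusted p under 0.05.

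The genes that work around the core machinery were counted in lists written by hand. Among 12 cofactors of the nuclear step, none was called in either line. ERH, HNRNPA1 and HNRNPA2B1 passed the adjusted p in both lines with less than 1.5-fold. ERH, a small protein that binds DGCR8, had log2 changes of -0.46 in TPC1 (limma adjusted p = 0.0119) and -0.48 in D11 (limma adjusted p = 0.0114). HNRNPA2B1, an RNA-binding protein, had -0.31 in TPC1 and -0.32 in D11. The median of this list was -0.14 in TPC1 and -0.22 in D11, beside -0.04 over all genes.

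Among 11 genes of precursor tailing, trimming and miRNA decay, 9 could be tested. The other members, LIN28A and LIN28B, which block let-7 processing, were at or near 0. ZSWIM8, the substrate receptor of the ubiquitin ligase that degrades Argonautes during target-directed miRNA decay, rose in both lines. Its counts were 1756 to 2815 in TPC1 controls and 3099, 3198 and 3022 in siDicer, and 1314 to 2346 in D11 controls and 2800, 3225 and 3285 in siDicer. No siDicer library overlapped a control. The log2 change was 0.62 in TPC1 (SE 0.14, limma adjusted p = 0.0146) and 0.72 in D11 (SE 0.15, limma adjusted p = 0.00518). The TPC1 call was lost against NT alone (0.57, limma adjusted p = 0.084) and without siDicer replicate 1 or 3, NC replicate 1 or NT replicate 3, at 0.58 to 0.64, while the D11 call held in every setting run.

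PARN, a ribonuclease that trims poly-A tails and some small RNA ends, fell in D11 (-0.68, SE 0.11, limma adjusted p = 0.00109). In TPC1 it passed the adjusted p but not the fold minimum (-0.55, SE 0.11, limma adjusted p = 0.00856). There it was called without siDicer replicate 2 (-0.69, limma adjusted p = 0.00137) and against NT alone (-0.61, limma adjusted p = 0.0407). TENT2, a nucleotidyltransferase that adds adenosines to miRNAs, had 0.33 in TPC1 (limma adjusted p = 0.0443) and 0.47 in D11 (limma adjusted p = 0.00722), both under 1.5-fold. The tailing enzymes TUT4 and TUT7 were at -0.02 and -0.27 in TPC1 and at 0.11 and -0.02 in D11, none called.

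The 7 factors that load or carry Argonautes had the lowest median of the lists, -0.36 in TPC1 and -0.44 in D11, beside -0.04 over all genes in both lines. Of the 7, 2 were called lower in each line, where 4.16% of all genes in TPC1 and 6.75% in D11 were called lower. FKBP5, a co-chaperone of HSP90, was called in both, at -0.65 in TPC1 (SE 0.19, limma adjusted p = 0.0414) and -0.79 in D11 (SE 0.12, limma adjusted p = 0.000814). IPO8, an importin known to bind Argonautes, was called in TPC1 (-0.80, SE 0.15, limma adjusted p = 0.0086), with counts of 1506 to 1861 in controls and 780, 1338 and 828 in siDicer. In D11 it was at -0.57 (SE 0.14, limma adjusted p = 0.011), under the fold minimum, and was called with NC alone (-0.63, limma adjusted p = 0.00933), without NT replicate 1 (-0.65) and without siDicer replicate 2 (-0.69). FKBP4 was called in D11 (-0.67, SE 0.16, limma adjusted p = 0.00927) and not in TPC1 (-0.48, limma adjusted p = 0.0834). The FKBP5 call in TPC1 was lost under TMM scaling (-0.61, limma adjusted p = 0.0532) and RLE scaling (-0.61, limma adjusted p = 0.0541). It was also lost with no filter on low values (-0.65, limma adjusted p = 0.0531) and against NT alone (-0.71, limma adjusted p = 0.109). The IPO8 call in TPC1 was lost without siDicer replicate 1 (-0.65, limma adjusted p = 0.0586) or replicate 3 (-0.70, limma adjusted p = 0.0642) and against NT alone (-0.78, limma adjusted p = 0.059). FKBP5 was also lost in TPC1 without any 1 of 7 of the 9 libraries, at -0.68 to -0.53, and FKBP4 in D11 without siDicer replicate 3 (-0.63, limma adjusted p = 0.0551).

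None of the 6 silencing effectors, which act downstream of the Argonautes, was called against the joint control. Against NT alone TNRC6A was called higher in D11 (0.95, limma adjusted p = 0.00198), where 17.1% of all genes were called. With the block so was TNRC6C (0.88, limma adjusted p = 0.0103), beside 18.9% of all genes. NC against NT in D11 gave 0.81 for TNRC6A and 0.68 for TNRC6C. Mean TNRC6A counts in D11 were 1670 in NT, 2890 in NC and 3190 in siDicer. TNRC6A was also called in D11 against the joint control without NC replicate 1 (0.65, limma adjusted p = 0.0467). The scaffold proteins TNRC6A, TNRC6B and TNRC6C had log2 changes of 0.37, 0.21 and 0.28 in TPC1 and 0.55, 0.34 and 0.54 in D11, with limma adjusted p from 0.104 to 0.379. FMR1, an RNA-binding protein, had 0.23 in TPC1 and 0.28 in D11 (limma adjusted p of 0.0987 and 0.057). Of the PIWI family, the germline relatives of the Argonautes, PIWIL1, PIWIL2 and PIWIL3 were too low to test. PIWIL4 was low but measured, with 52 to 74 in D11 controls and 97, 92 and 93 in siDicer, and it was called higher in D11 (0.60, limma adjusted p = 0.0194). That call was lost without any of the 3 siDicer libraries or without NT replicate 2 or 3, at 0.56 to 0.62, and against NC alone (0.48, limma adjusted p = 0.0841). In TPC1 PIWIL4 was not called against the joint control (0.40, limma adjusted p = 0.36) but was against NT alone (0.82, limma adjusted p = 0.049). NC against NT in TPC1 gave a like estimate for PIWIL4, 0.85 (limma adjusted p = 0.169, not called). Its TPC1 means were 49.7 in NT, 90.7 in NC and 89 in siDicer. The difference between the lines was not called for any gene of these lists.

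**Figure D5:**
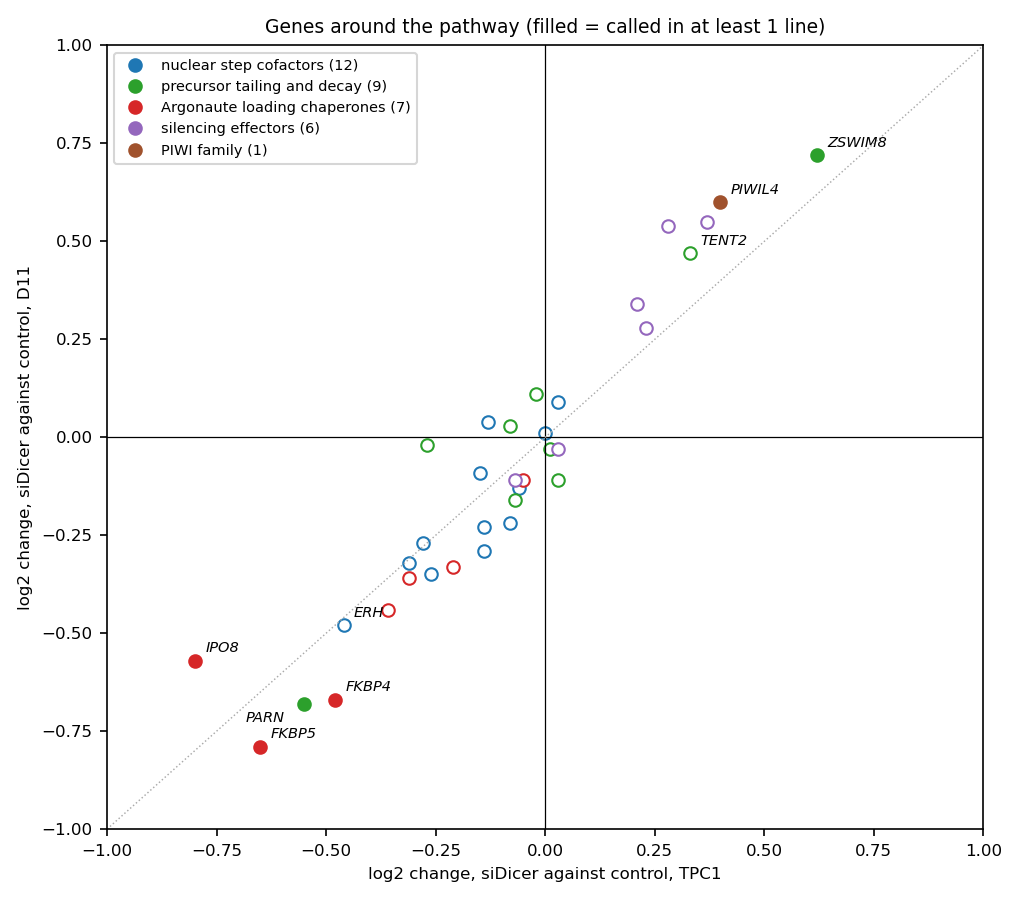
Log2 change between siDicer and control in TPC1 (x axis) and in D11 (y axis) for the tested genes of 5 lists around the miRNA pathway, with filled symbols for genes called in at least 1 line and a dotted line where both changes are equal. ZSWIM8 stands highest (0.62 and 0.72), and FKBP5, FKBP4, PARN and IPO8 stand lowest.

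Over the 18 libraries, the 5 genes whose log2 values ran most like DICER1, of 12508 with a mean of at least 100, were NECTIN3, KIAA0895, BBS10, ADAM9 and SLC39A10 (Pearson r of 0.970, 0.968, 0.967, 0.966 and 0.965). SLC39A10, for example, had 1409, 1390 and 1362 in TPC1 NT and 470, 629 and 469 in siDicer, and in both lines siDicer replicate 2 was the highest siDicer library, as it was for DICER1. Among the 10 genes themselves, DICER1 ran most like DROSHA (r of 0.71), AGO4 (0.66) and PRKRA (0.64), and most opposite to TARBP2 (-0.78). The lowest of all pairs was TARBP2 with AGO4 (-0.81). These are descriptions over libraries that share groups and depth. After the group means were taken out, the value for DICER1 with DROSHA was 0.19, with AGO4 0.42, with PRKRA 0.52 and with TARBP2 -0.60, and DICER1 with AGO2 went from 0.10 to 0.65.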

How the data were processed

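Per the study's methods and the submitters' processing notes, the authors aligned the reads with STAR 2.5.3a to GRCh38, assigned them to the genes of Ensembl release 90 by HTSeq 0.9.1, scaled each library to 20 M aligned reads and rounded up. The deposited values are therefore whole-number scores and not raw counts. Whether counting used strand is not given in the sources used here. Dividing by the value of 1 read gave whole reads for 99.78% to 99.95% of values in 16 libraries and could not be checked in the other 2, where 1 read was worth less than 1 unit.

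The fits used limma 3.58.1 in R 4.3.3 with a mean-variance trend on log2(value + 1), keeping genes that reached 10 in 3 or more libraries, with Benjamini-Hochberg adjustment over all genes tested and two-sided p-values. The joint control of NT and NC follows the results text of the study, which reports that these conditions did not differ. A figure legend of the study names NC as the control. In the fits here 0.111% of genes in TPC1 and 0.35% in D11 were called between NC and NT. With the replicate block these shares were 3.14% and 1.75%. The fits of siDicer against control and of NC against NT, without a block, were tested on simulated data with known changes. The fits between lines, the interaction and the alternative fits were not. In all 18 pairs of replicates within a group the libraries differed beyond counting noise (chi-square per degree of freedom 4.67 to 44.92), so each counted as 1 sample.

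Same-numbered libraries of D11 deviated together, with a correlation above 0.1, in 9 of 9 pairs (correlation of deviations from the group means 0.108 to 0.504), and those of TPC1 in 8 of 9 (0.099 to 0.542). By the rule that every pair exceed 0.1, the D11 numbers were taken to pair the libraries and the TPC1 numbers were not. The labels state no pairing, and over genes with a mean of at least 100 the counts were 8 of 9 in D11 and 9 of 9 in TPC1, so the lines were not clearly different in this.

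The 10 genes and the lists were chosen with earlier results of these data known. Text names the 10 genes, the 2 genes of each list with the smallest p in each siDicer comparison, any called list gene and the 5 genes most like DICER1. TENT2, TUT4, TUT7, LIN28A, LIN28B, HNRNPA1, TNRC6B, TNRC6C and the untested PIWI genes lie outside this rule and were named for their roles after their values were seen. Gene positions, merged exons and target sites are from GENCODE 44 on GRCh38, which held 57532 of the 58302 gene identifiers (98.7%). Alternatives were other scalings (TMM, RLE), pseudocounts, filters and control groups, a joint fit of the 18 libraries, a replicate block, voom on recovered reads and leaving out each library.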

Additional observations from a re-analysis of the deposited data

Results flagged for a closer look

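Among the 6 control libraries of D11, TARBP2 was 682 in NT replicate 1 while the nearest other library had 556, a gap of 0.653 of the whole range, which is above Dixon's 95% critical value for a group of this size. This was the only such library among 20 sets of control libraries examined (10 genes in each line), where chance gives about 1 in 20. The same library had the lowest control counts of DICER1 (655), AGO2 (1921) and AGO4 (184), and whether these values are related was not tested.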

How the results depend on the processing

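DICER1 stayed called with siDicer in both lines in every setting with the groups of the descriptions. It was at -2.86 to -2.52 in TPC1 and -1.98 to -1.63 in D11 when 1 library was left out. The choice of control moved DICER1 further, to -2.35 in TPC1 and -1.41 in D11 with NT alone. With NC alone it was -2.94 in TPC1 and -2.12 in D11. With groups from the titles it was -0.13 in each line. The number of the 10 genes called in TPC1 with siDicer became 2, through AGO4, with a replicate block (-0.60, limma adjusted p = 0.00934). It was also 2 with NC alone as control and a block, and without siDicer replicate 2. Over the fits without 1 library it was thus 1 to 2. Of all genes, 9.72% were called with the block and 11% with NC alone and a block. In D11 the number of the 10 became 2 with NT alone (AGO3) and with NC alone and a block (AGO4 at -0.62). There 17.1% and 12.1% of all genes were called. Between NC and NT in D11 the count of 0 became 2 with the replicate block and 1 in the fit of all 18 libraries, beside 1.75% and 1.05% of all genes. Between the lines in controls it was 0 within NT or NC alone and 0 to 1 without 1 library. The block changed no other call of the 10 genes in D11. NC alone with a block, the canonical lengths, siDicer against NT, the D11 fits with a block and 1 library left out, and the pairing over genes with a mean of at least 100 (9 of 9 pairs in TPC1, 8 of 9 in D11) were added after seeing the data.

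None of the estimates that changed sign was a called one. With NC alone as control, with or without the block, siDicer gave XPO5 -0.05, AGO2 -0.17 and PIWIL4 -0.03 in TPC1, XPO5 -0.02 and AGO2 -0.17 in D11, and, for the difference between lines (without the block), PRKRA 0.02, AGO1 -0.16, AGO2 0 and AGO3 -0.17. Between the lines in controls PRKRA was 0 with TMM, 0.01 with RLE and 0.03 with NT alone, where AGO1 was -0.18, and AGO3 was 0.15 with NC alone. In siDicer libraries TARBP2 was 0.01 with TMM and with RLE, and DROSHA 0 with voom.

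With 1 library left out, siDicer ranged over -0.05 to 0.12 for XPO5 in TPC1 and -0.01 to 0.08 for DGCR8 in D11. NC against NT in TPC1 ranged over -0.11 to 0.07 for DROSHA, -0.09 to 0.13 for DGCR8, -0.06 to 0.08 for TARBP2, -0.07 to 0.01 for PRKRA, -0.17 to 0.08 for AGO3 and -0.13 to 0.46 for AGO4. In D11 it ranged over -0.07 to 0.07 for DROSHA, -0.02 to 0.13 for DGCR8, -0.12 to 0.12 for TARBP2 and -0.09 to 0.12 for AGO1. The lines in controls ranged over -0.03 to 0.02 for PRKRA, -0.07 to 0.08 for AGO1 and -0.14 to 0.01 for AGO3. In siDicer libraries they ranged over -0.02 to 0.41 for DICER1, -0.06 to 0.06 for DROSHA, -0.07 to 0.06 for TARBP2, -0.10 to 0.08 for PRKRA, -0.03 to 0.06 for AGO1, -0.10 to 0.02 for AGO2, -0.15 to 0.09 for AGO3 and -0.27 to 0.15 for AGO4. The difference between lines ranged over -0.10 to 0.00 for DGCR8, -0.07 to 0.09 for XPO5, -0.10 to 0.09 for PRKRA, -0.04 to 0.11 for AGO1, -0.06 to 0.20 for AGO2 and -0.07 to 0.18 for AGO3. The cause of these shifts was not tested. Calls needed 1.5-fold by rule, so smaller changes that passed the adjusted p are not counted, and mRNA levels say nothing of the proteins.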
